A study of Mus musculus with 15 samples.

Results

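Regions of mutant Sp7 alone are the sites where a mutant form of the transcription factor Sp7 gave overlapping ChIP-seq peaks in both of its libraries and no other tagged factor of the study did so. They were chosen from peak positions. Peaks of the 2 Sp7mut libraries were merged where they shared at least 1 bp, and a merged region was kept as a shared region when it held a peak of both libraries and no peak of the GFP control. Shared regions of the other groups were built in the same way, and a Sp7mut region was taken when it overlapped none of those of Sp7, Dlx5 or Sp1 in the cell line, nor those of Sp7 in primary cells. The rule selected 881 of the 8201 Sp7mut regions, which is 10.7% (95% Clopper-Pearson interval 10.1 to 11.4, counting error only). The 5 tagged groups held 47935 shared regions in all.

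All cell line groups used MC3T3-E1 cells, which were established from mouse calvaria and can be differentiated into osteoblasts, at passages 5 to 10. They were kept for 1 week in osteogenic medium with 10% serum, ascorbic acid phosphate at 50 ug/ml, beta-glycerophosphate at 10 mM and the bone-inducing growth factor BMP2 at 10 ng/ml. FLAG-tagged Sp7, Sp7mut, Dlx5 and Sp1 had 2 libraries each, and a GFP library taken through the same FLAG M2 pulldown was the only control. The primary cells were calvarial osteoblasts of postnatal day 1 C57BL/6 mice of genotype Sp7-BioFL/BioFL (2 libraries) or wild type (1 control library). What is changed in Sp7mut, how the factors were expressed in the line, whether the line's own Sp7 was present, and whether the libraries came from separate cultures are not stated in the labels.

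Sp7, also called Osterix, is a zinc finger protein without which osteoblasts do not form. It belongs to the Sp family, whose widely expressed member Sp1 binds GC-rich promoter elements, and the series' title describes it as a partner of Dlx factors, homeodomain proteins such as Dlx5 that prefer AT-rich sites. The lists give positions on mouse build mm9 and no score, fold or read count, so the depth behind a peak is unknown. No mm9 sequence or gene annotation was used here, and regions are therefore given by position, without gene names or bases.

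The Sp7mut lists held 10519 and 14830 peaks. The other lists ranged from 2666 peaks (primary Sp7, replicate 1) to 39749 (Dlx5, replicate 2), and the GFP and wild-type controls had 269 and 183. Per the labels, Sp7mut and Sp1 peaks were called against a different input library than Sp7 and Dlx5 peaks of the line, so input and factor cannot be told apart between these pairs. With 2 lists a group, an exact two-sided permutation test of lists cannot go below p = 0.333. No test was made, and each difference below is a description of these lists, with its value in both replicates where they give one.

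Most of the 881 regions were met by a peak of at least 1 partner list. At 795 of them (90.2%) at least 1 of the 8 partner lists had a peak, which the rule had passed over because no peak of that partner's other replicate overlapped it (in 1 case, because of a control peak). No partner list met the remaining 86 regions (9.76%, interval 7.88 to 11.9). Sp7mut regions outside the 881 all overlap a shared partner region by definition, so these shares have no like background. The shares of single lists are set beside their background below. A region was met by 2 partner lists at the median: 250 regions were met by 1 list, 318 by 2, 200 by 3, and 27 by 4 or more. Counted by factor, peaks of a single factor met 262 regions, peaks of 2 factors 335, peaks of 3 factors 194 and peaks of all 4 groups 4.

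Sp1 was the partner most often present in a single list. Sp1 replicate 2 met 560 of the 881 regions (63.6%), against 61.8% of all Sp7mut regions that lacked a shared Sp1 region. Sp1 replicate 1, with 10549 peaks against 28210, met 108 (12.3%, interval 10.2 to 14.6), against 4.76% of all those lacking Sp1. The share in the longer Sp1 list was therefore near its background, and that in the shorter list was above it. At 35 regions both Sp1 lists had a peak without forming a shared Sp1 region.

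Normal Sp7 of the cell line came next, with a peak of either list at 459 regions (52.1%). Sp7 replicate 1 met 429 (48.7%, interval 45.3 to 52.1), below the 62.0% of all Sp7mut regions that lacked a shared Sp7 region. The shorter Sp7 replicate 2, with 6063 peaks, met 36 (4.09%), against 6.31%. Of the 881 regions, 697 (79.1%) were met by at least 1 of the longest Sp7 and Sp1 lists, and 292 (33.1%) by both.

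Dlx5 had the longest lists and met fewer of the regions than the longer Sp7 and Sp1 lists did. Dlx5 replicate 1 met 211 (24.0%) and replicate 2 met 233 (26.4%), against 25.1% and 25.5% of all Sp7mut regions without a shared Dlx5 region. Both shares lay near their background. Primary osteoblast Sp7 was rare at these sites: replicate 1 met 5 regions and replicate 2 met 18, which is 0.568% and 2.04%, against 1.87% and 4.45% of all Sp7mut regions without a shared primary Sp7 region.

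**Figure D1:**
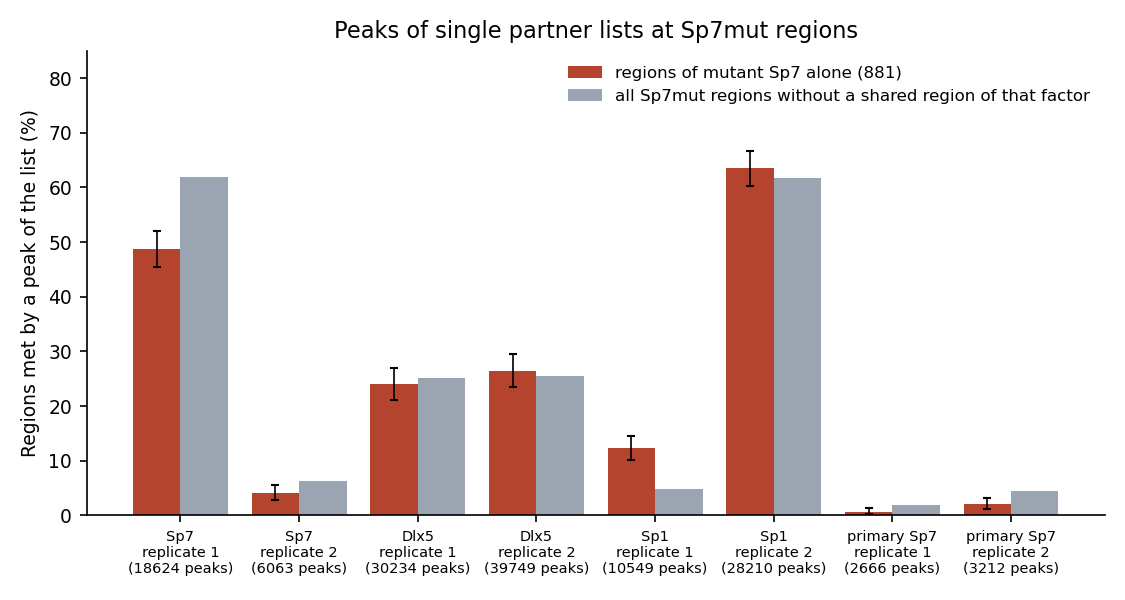
Bars give the percentage of regions met by a peak of each partner list, for the 881 regions of mutant Sp7 alone (red, with 95% Clopper-Pearson intervals) and for all Sp7mut regions without a shared region of that factor (grey). The red bars are highest for Sp1 replicate 2 (63.6%) and Sp7 replicate 1 (48.7%), the longer list of each of these factors.

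By factor, the commonest combination at the 881 regions was Sp7, Dlx5 and Sp1 together, each in at least 1 list, at 187 regions (21.2%). Sp7 with Sp1 followed at 172, Sp1 by itself at 155, and Dlx5 with Sp1 at 108. Dlx5 by itself met 60 and Sp7 by itself 47. These combinations were not counted over other Sp7mut regions, so they are not shown to be particular to the 881. How many regions counted as mutant Sp7 alone rested on single libraries: without Sp1 replicate 1, so that a peak of replicate 2 was enough, the rule gave 341 regions, 322 of them among the 881. Without Sp7 replicate 2 it gave 455, 453 of them among the 881. Without Sp7mut replicate 1 or replicate 2, which also dropped the need for a second Sp7mut peak, the counts were 3069 and 1645.

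The partner peaks at these regions stood later in their lists than those at shared regions of the same partner, a contrast that the rule itself favours. The order of rows is not explained in the files, but it went with how often a peak was found again. Of the first 20% of rows of Sp7mut replicate 1, 98.5% were met by a peak of replicate 2, and of the last 20% 57.0%. For Sp7mut replicate 2, the shares met by a peak of replicate 1 were 96.2% and 24.2%. At the 881 regions, the Sp7 replicate 1 peak stood at 55.4% of its rows at the median, against 12.0% where Sp7mut met a shared Sp7 region. For Sp1 replicate 2 the positions were 46.2% and 11.7%. In the shorter lists they were 63.4% and 35.3% for Sp7 replicate 2 and 61.3% and 37.7% for Sp1 replicate 1. For Dlx5 they were 67.7% and 20.4% in replicate 1 and 64.6% and 17.3% in replicate 2. Against the other Sp7mut regions that lacked the partner and were met by the same list, the order differed between partners. The peak at the 881 regions stood later in Sp7 replicate 1 (55.4% against 42.4%), but earlier in Sp1 replicate 2 (46.2% against 52.4%) and in Dlx5 (67.7% against 71.7% and 64.6% against 69.0%). The gap was smaller in Sp7 replicate 2 (63.4% against 60.5%) and nearly absent in Sp1 replicate 1 (61.3% against 61.6%). For Sp7 and Sp1 the difference thus rested mainly on 1 list each. Of the 560 regions met by Sp1 replicate 2, 248 (44.3%) were met in the last 50% of its rows and 40 in the first 20%.

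In the Sp7mut lists themselves the regions stood later than Sp7mut regions as a whole. Their median row position was 67.1% in replicate 1 and 54.3% in replicate 2, against 42.1% and 31.3% for all Sp7mut regions. Of the 881, 21 (2.38%) lay in the first 20% of replicate 1 and 64 (7.26%) in that of replicate 2, against 24.7% and 33.7% of all Sp7mut regions. Sp7mut regions with a shared Sp7 region had medians of 21.9% and 15.4%. Those without Sp7 but with Sp1 and not Dlx5 had 56.5% and 46.7%, and those with Dlx5 and not Sp1 had 54.6% and 41.0%. The 881 thus stood later than each of these classes in both replicates. At the 23 Sp7mut regions with primary Sp7 as their only partner the medians were 58.7% and 54.6%. The 881 therefore stood later than these in replicate 1 but not in replicate 2. The 86 regions met by no partner list stood later again, at 75.2% and 69.9%.

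**Figure D2:**
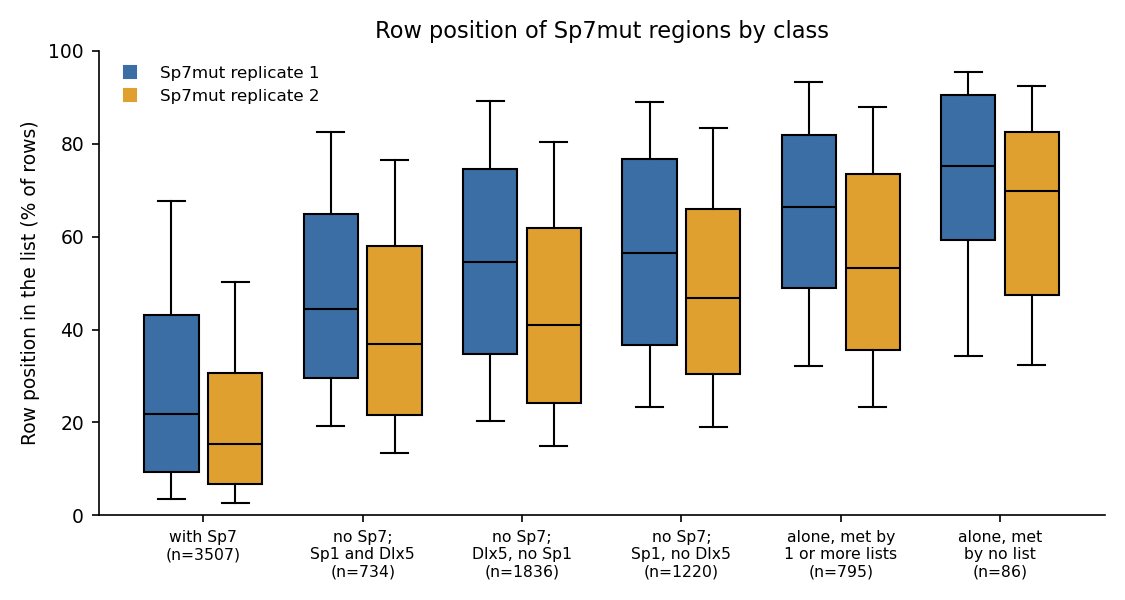
Row position in the Sp7mut lists, in percent of rows from the top, for Sp7mut regions with a shared Sp7 region, those without Sp7 but with Sp1 or Dlx5, and those of mutant Sp7 alone with and without a peak of any partner list. Boxes span the quartiles with the median line and whiskers the 10th to 90th percentiles, and the medians are highest for the 86 regions met by no list (75.2% and 69.9%).

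Sp7mut regions were ranked by mean row position over both lists and divided into 10 groups of equal size. The earliest 820 held 0 regions of mutant Sp7 alone (upper limit of the exact interval 0.449%). The share was 1.34% in the next group, 7.20% in group 5 and 28.6% in the last, where 235 of 821 regions belonged. Over the same groups the share with a shared Sp7 region went from 95.4% in the first to 10.4% in the last. That with Dlx5 went from 96.1% to 44.2% and that with primary Sp7 from 49.1% to 3.17%, while that with Sp1 lay between 33.9% and 46.5%. Among the 881 the partners also thinned out. In the earliest and the latest 20% of them, a peak of either Sp7 list was present at 66.5% and 36.2%, of either Dlx5 list at 56.8% and 36.7%, and of either Sp1 list at 76.1% and 65.5%.

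**Figure D3:**
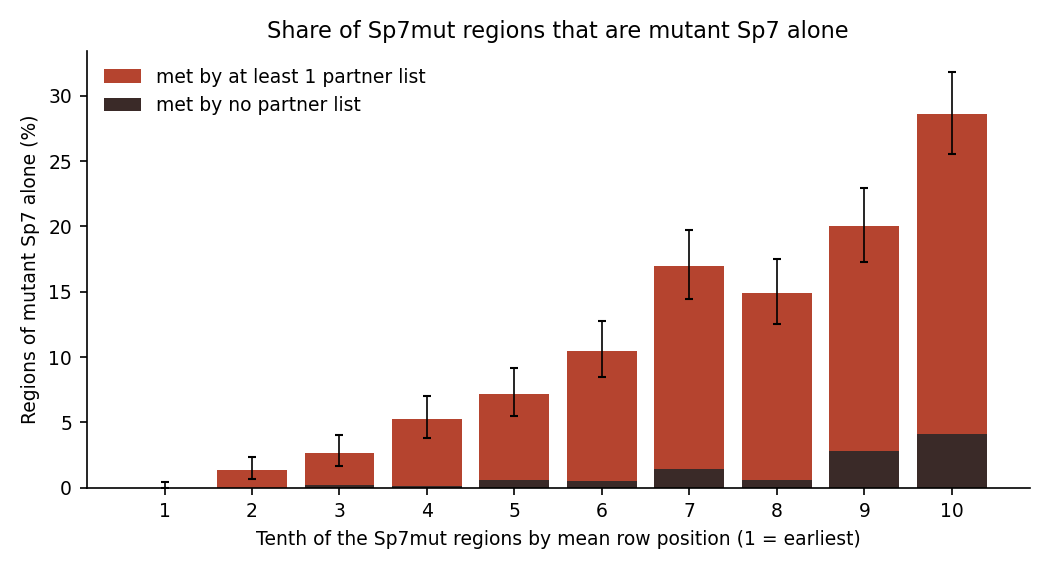
Percentage of Sp7mut regions that are mutant Sp7 alone in 10 groups of equal size ranked by mean row position, with 95% Clopper-Pearson intervals; the dark part of each bar marks regions met by no partner list. The bars go from 0 in the first group to 28.6% in the last, of which 4.14 percentage points were met by no list.

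The 10 earliest regions were each met by at least 1 partner list. Sp7 was present in 1 of its lists at 9 of them, Dlx5 at 7, Sp1 at 6 and primary Sp7 at 1. The earliest was chr2:38538090-38538271 (mm9), at row 1063 of Sp7mut replicate 1 and row 788 of replicate 2. Its only partner peak was at row 4928 of Sp7 replicate 1, and a shared Dlx5 region lay 141 bp away and a shared Sp7 region 143 bp away. The second, chr9:116062381-116062534, at rows 1093 and 929, was met by Sp7 replicate 1 (row 6917) and Dlx5 replicate 1 (row 4911). The third, chr7:134920580-134920859, at rows 812 and 1502, was met by row 94 of Sp1 replicate 2, near the very top of that list of 28210 peaks, and had no peak in Sp1 replicate 1.

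Others of the early regions lay beside shared regions of the other factors. At chr4:137300541-137300756, rows 1870 and 579, a shared Sp7 region was 204 bp and a shared Dlx5 region 222 bp away. At chr4:59327960-59328141, rows 1582 and 1108, the peak of Sp7 replicate 1 stood at row 1209 and another Sp7mut region lay 168 bp away. The region chr16:18877087-18877334, rows 1414 and 1648, was met by Sp1 replicate 1 (row 1441), Sp7 replicate 1 (row 2287) and Dlx5 replicate 2 (row 18340), and a shared Sp1 region was 241 bp away. Only chr11:116275136-116275262, rows 871 and 2722, was met by primary Sp7 (replicate 2, row 1770), along with Dlx5 replicate 2 (row 7544) and neither list of cell line Sp7. The other three, chr2:167411732-167411879, chr2:170161923-170162131 and chr11:58136414-58136614, were all met by Sp7 replicate 1. None of these 10 regions thus had mutant Sp7 as its sole factor in every list.

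The 86 regions met by no list lay between 2 bp and 42.7 kb from the nearest partner peak. Of these, 56 lay within 500 bp of a partner peak, at a median of 65.5 bp, and 29 of the 56 also had another Sp7mut region within 1 kb. Another 29 lay over 1 kb from every partner peak, the nearest at 1006 bp and the median at 8371 bp, and the last lay 632 bp away. The 29 make up 3.29% of the 881 regions. Their median row positions were 69.7% in Sp7mut replicate 1 and 72.2% in replicate 2, and 12 of them were over 10 kb from any partner peak.

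The earliest of these 29 was chr6:83383667-83383816, at row 1460 (13.9%) of Sp7mut replicate 1 and row 4693 (31.6%) of replicate 2. Its peaks were 150 and 115 bp wide, the nearest partner peak was 5.37 kb away, and the nearest other Sp7mut region 62.1 kb. It was followed by chr10:24328854-24329117, at rows 2704 and 6427 and 8.92 kb from the nearest partner peak. The region farthest from any partner peak was chr9:118558761-118558939, at 42.7 kb, and it stood at rows 9988 and 14752, near the end of both lists. Next came chr2:158275727-158275897, at 40.1 kb and rows 5655 and 11056. These isolated regions were singled out after their values were seen.

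Counting all 881 regions, most had a shared region of another factor within 10 kb. A shared region of at least 1 partner lay within 500 bp of 259 regions, within 1 kb of 328 (37.2%) and within 10 kb of 573 (65.0%). Counting other Sp7mut regions too, 594 (67.4%) had a shared region within 10 kb, against 96.5% of all Sp7mut regions, for which the overlapping regions that the rule excludes were counted. The median distance was 9.38 kb to a Dlx5 region, 26.0 kb to an Sp1 region, 59.0 kb to a cell line Sp7 region and 221 kb to a primary Sp7 region. The order of these distances follows the number of regions of each factor, 23682, 8937, 5018 and 2097. Within 1 kb, 24.0% of the 881 had a Dlx5 region, against 16.2% of Sp7mut regions with Sp1 but without Sp7 or Dlx5. For Sp1 it was 19.2%, against 7.41% of those with Dlx5 but without Sp7 or Sp1. For cell line Sp7 it was 10.6%, against 3.92% to 6.27% in the classes without Sp7 but with Sp1 or Dlx5. Median distances to Sp7 in those classes were 55.5 to 76.4 kb. Another Sp7mut region lay within 500 bp of 131 of the 881 (14.9%), against 6.50% of all Sp7mut regions, and within 10 kb of 328 (37.2%), against 29.3%. The regions seldom formed groups among themselves: 793 had no other of the 881 within 10 kb, 41 groups had 2 and 2 groups had 3.

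**Figure D4:**
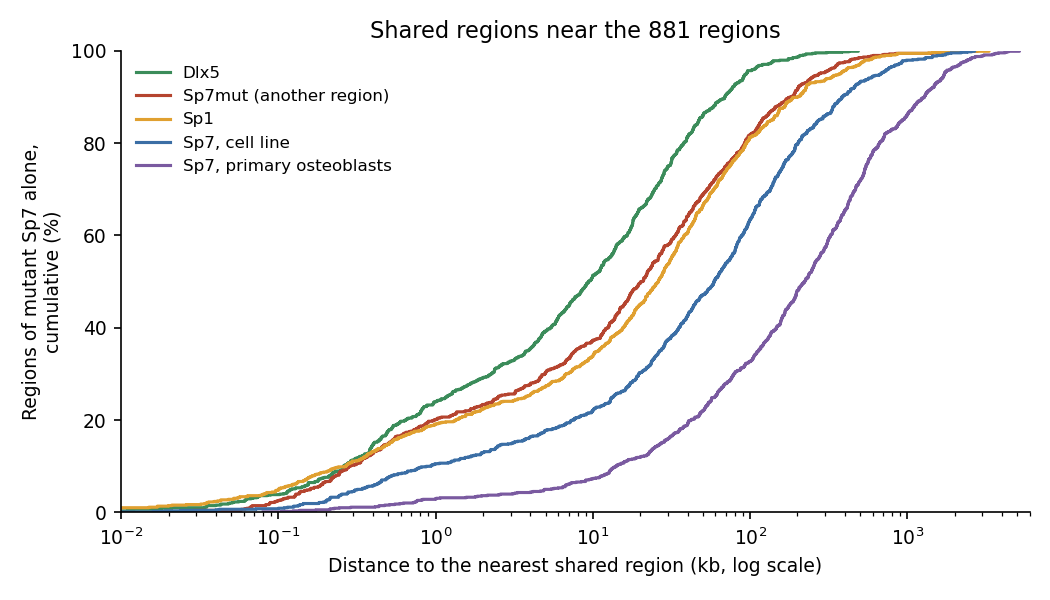
Cumulative percentage of the 881 regions by distance, in kb on a log scale, to the nearest shared region of each factor and to the nearest other Sp7mut region. The Dlx5 curve lies leftmost from 1 kb on (median 9.38 kb) and that of primary Sp7 rightmost (221 kb).

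The largest groups held 3 regions each. The first lay at chr6:47403913-47404799 and packed its 3 regions, 171, 140 and 255 bp wide, into 887 bp. They stood at rows 4614, 6564 and 5872 of Sp7mut replicate 1 and rows 11005, 4692 and 5792 of replicate 2. The second, chr8:122788723-122794585, spanned 5863 bp, with rows 2189, 4083 and 3306 in replicate 1 and 2633, 2936 and 2935 in replicate 2. Each region of both groups was met by 1 to 3 partner lists.

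Replicate peaks matched less closely at these regions than over all Sp7mut regions. The midpoints of the peaks in both Sp7mut lists were 33 bp apart at the median, against 25.5 bp over all Sp7mut regions and 19 bp at those with Sp7. The peaks shared at least 50% of both their lengths at 510 of the 881 (57.9%), against 68.4% of all. Regions without Sp7 but with Sp1 and not Dlx5 gave 54.4% and 38.5 bp. Row positions in both lists had a Spearman correlation of 0.484 across the 881 regions. Across all Sp7mut regions, over which mean row positions spread more widely, it was 0.760. It was 0.825 at regions with Sp7 and 0.562 to 0.596 in the classes without Sp7 but with Sp1 or Dlx5. At the 23 regions with primary Sp7 as their only partner it was 0.431. These regions share their pair of libraries and are not replicates.

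Single peaks at these regions were about as wide as elsewhere, while merged regions were a little wider than over all Sp7mut regions. Median peak width was 156 bp in replicate 1 and 167 bp in replicate 2, against 148 and 166 bp over all Sp7mut regions. Merged regions had a median of 216 bp against 200 bp. Regions without Sp7 but with Sp1 were wider still, at 245 bp without Dlx5 and 236 bp with it. Those with Dlx5 and neither Sp7 nor Sp1 had 201 bp. More than 2 peaks were joined at 2.29% to 7.63% of those 3 classes, and at 32 of the 881 (3.63%), against 3.83% of all. The widest regions were chains of this kind: chr12:56592705-56593593 (889 bp, 4 peaks), chr17:4995346-4996228 (883 bp, 4 peaks), chr17:14004064-14004858 (795 bp, 5 peaks), chr6:17643964-17644755 (792 bp, 3 peaks) and chr11:78894333-78895073 (741 bp, 3 peaks). All 5 were met by between 2 and 5 partner lists. At chr17:14004064-14004858 peaks of both Sp7 lists and both Dlx5 lists were present at different places along the region, so that neither pair formed a shared region.

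The latest regions by mean row position stood at the ends of both lists. They were chr15:99683413-99683662 (rows 10299 and 14779), chr19:12619753-12620022 (rows 10482 and 14515), chr1:180267038-180267263 (rows 10332 and 14708), chr13:9763167-9763509 (rows 10161 and 14736) and chr13:51396686-51397044 (rows 10477 and 14212). Partner lists met 2 of the 5, and chr13:9763167-9763509 lay over a peak of the wild-type control of primary osteoblasts.

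The boundary of the rule was sharp in bp. Just inside it, chr13:99424256-99424401 lay 1 bp from a shared Dlx5 region and chr19:7342265-7342497 2 bp from a shared Sp1 region. Just outside, chr19:53404048-53404324 overlapped a shared Sp1 region by 1 bp and chr11:4086865-4087075 overlapped another by 4 bp. Within 10 bp of a partner region there were 13 of the 881, while 5 Sp7mut regions were kept out by 10 bp of overlap or less.

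Signal of the FLAG antibody without a tagged factor was near few of the regions, though near a larger share of them than of all Sp7mut regions. Peaks of the wild-type control, which the rule did not use for the cell line, met 5 of the 881 (0.568%), against 0.280% of all Sp7mut regions. A GFP control peak lay within 1 kb of 11 (1.25%), against 0.329% of all. At chr17:25410098-25410605, which lay 9 bp from a GFP peak and over a wild-type control peak, 7 of the 8 partner lists had a peak. It was singled out after its values were seen. Partner regions there had been removed for overlapping the control, and this was the only such case among the 881. The part of antibody background in the other regions was not tested.

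The regions were spread over all chromosomes but Y. They made up between 7.01% of Sp7mut regions on chromosome 1 (40 of 571, interval 5.05 to 9.42) and 15.7% on chromosome 14 (35 of 223, interval 11.2 to 21.1) among the autosomes. Chromosome 11 held the most, 104 of 761 (13.7%, interval 11.3 to 16.3). On X 1 of 28 Sp7mut regions belonged. Intervals of most chromosomes covered the overall 10.7%, and those of chromosomes 7, 11, 14 and 19 lay above it and those of 1, 6, 9 and 15 below it. They cover counting error only and were not adjusted for the number of chromosomes.

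**Figure D5:**
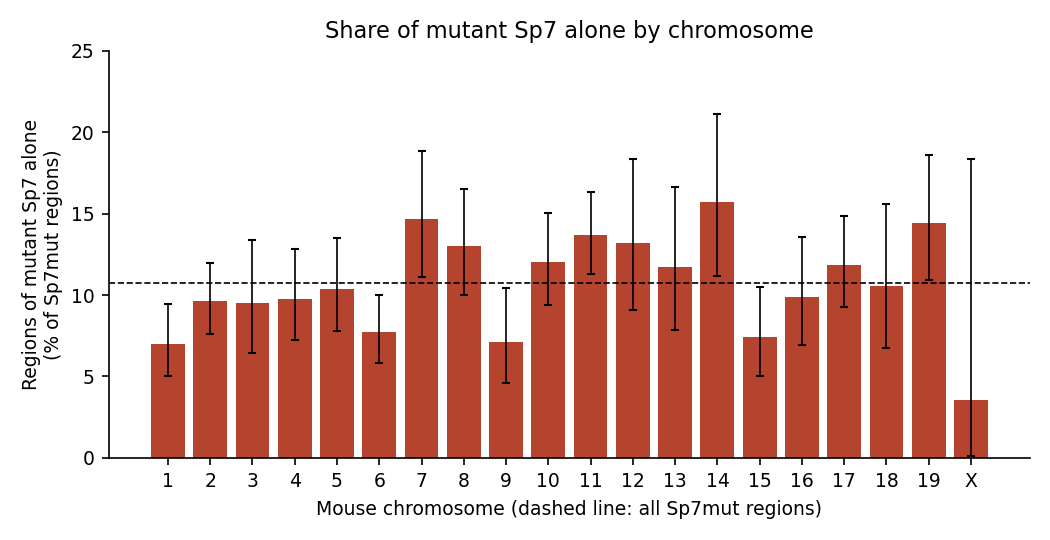
Regions of mutant Sp7 alone as a percentage of Sp7mut regions on each chromosome, with 95% Clopper-Pearson intervals; the dashed line marks the 10.7% of all Sp7mut regions. Bars range from 3.57% on X (1 of 28) to 15.7% on chromosome 14.

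Regions that stand alone in the other groups, picked in the same way, were alike in makeup for normal Sp7 of the cell line and unlike for the other groups. Normal Sp7 of the cell line stood alone at 237 of its 5018 regions (4.72%), and 90.3% of these were met by a list of another group. Sp1 stood alone at 4583 of 8937 (51.3%), of which 44.2% were met by another list. For Dlx5 the values were 15572 of 23682 (65.8%) and 45.1%, and for primary Sp7 605 of 2097 (28.9%) and 49.4%. Both cell line forms of Sp7 thus had few regions of their own, and nearly all of those were met by another list, whereas 54.9%, 55.8% and 50.6% of those of Dlx5, Sp1 and primary Sp7 were met by no other list. Each group was set against a different set of lists, of different length, and these shares were not tested against each other. Each cell line form of Sp7 also had the other form among its partners, and 3507 Sp7mut regions overlapped a shared Sp7 region. Dlx5 and Sp1 had no second form among theirs. Primary Sp7 had both cell line forms among its partners and stood alone at 28.9% of its regions. How far the choice of partners sets these shares was not tested.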

How the data were processed

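FLAG ChIP-seq peaks of 12 libraries were used; the other 3 of the 15 samples are inputs. Each deposited list holds the authors' chromosome, start and end and no score, so the depth is unknown. The submitters' processing notes name the build mm9. Neither the caller nor its threshold is stated in the labels or files. Per the labels, each list was called against an input of its cell system (not stated for GFP); there is 1 list per library. Groups and replicate numbers came from sample titles. Coordinates are 1-based. Overlap meant at least 1 bp. Row position is a peak's row as a percentage of its list, taken as the earliest where a region held several peaks. A region was "met" by a list when it overlapped any of its peaks. Regions were named by rule: the 10 earliest and 5 latest by mean row position, the 5 widest and the largest groups within 10 kb. Members and lists were chosen with earlier results of these data known. Merging and overlap were tested on simulated peaks with planted counts. Alternatives were an overlap of at least 50%, control regions kept, the wider or earlier 50% of each list, either list of a partner, a distance of 500 bp, and each replicate left out. Planned motif, sequence and gene analyses were not run because mm9 sequence was not used here. Tables and intervals were made with pandas 2.3.3, scipy 1.17.1 and numpy 2.4.6 under Python 3.11.15, and figures with matplotlib 3.10.9.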

Additional observations from a re-analysis of the deposited data

How the results depend on the processing

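The number of regions of mutant Sp7 alone (881, 10.7% of Sp7mut regions) depended on how a partner was counted. It was 2124 (25.9%) when an overlap of at least 50% of both regions was needed, 622 (7.58%) when a partner region within 500 bp counted, and 86 (1.05%) when a peak of either replicate list of a partner counted. With the wider 50% of each list it was 1239 (54.7%), and with the earlier 50% of rows 608 (14.3%), both of which also changed the number of Sp7mut regions. Keeping control regions gave 883. Leaving out a replicate, of every group or of 1 group, gave 341 to 3069 regions and 4.16% to 21.2%. The lowest came without Sp1 replicate 1 and the highest without Sp7mut replicate 1; without Sp7 replicate 2 there were 455, without Sp7mut replicate 2 1645, and without replicate 1 of every group 1323. Merging peaks that only touch, added after seeing the data, gave 879. The share met by a partner list was 68.0% to 96.0% over 16 alternatives, but what it measures changed with the setting. A partner list left out no longer counted, and the rule then excluded every region met by that partner's other list. With the overlap of at least 50%, a smaller overlap with a shared partner region counted as met. The median row position was 55.2% to 69.6% in 13 of 19 alternatives and 30.3% to 78.9% in the other 6, which use other parts of the lists or 1 Sp7mut list. The share with a shared region of any tagged group within 10 kb (67.4%) was 67.3% to 69.0% in 6 of 19 alternatives. In the other 13 it was 32.6% to 92.1%, with 32.6% for the wider 50% of each list and 48.4% for the earlier 50% of rows. The median width of merged regions was 211 to 218 bp in 11 of 19 alternatives and 133 to 267 bp in the other 8. The alternatives for GC content, motifs and transcription starts were not run. No paired analysis was possible because no result comes from a test.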

Other observations

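Peak widths had a common ceiling in these lists. No peak was wider than 498 bp in 10 of the 12 lists, while Sp7 replicate 1 reached 845 bp and Sp1 replicate 2 reached 569 bp in 1 and 3 peaks above 498 bp. Very narrow peaks were present too: the narrowest was 4 bp in each of the 8 lists of tagged factors in the cell line. At 36 of the 881 regions the Sp7mut replicate 1 peak was narrower than 50 bp, and at 37 the replicate 2 peak was. Such peaks were not counted over all Sp7mut regions. The 10th percentile of peak width was 76 and 81 bp at the 881, against 87 and 95 bp over all Sp7mut regions. It was 71 and 88 bp at those without Sp7 but with Sp1 and not Dlx5. At chr9:8004580-8004926, an example chosen after its values were seen, the replicate 1 peak was 347 bp wide and that of replicate 2 was 9 bp.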
